A study of Homo sapiens and Homo sapiens
Mus with 12 samples.

Results

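The nuclear genes of mitochondrial complex I were followed in UM-UC-3 cells, a human bladder cancer line, with and without knockdown (KD) of CDH11, the gene of the cell adhesion protein cadherin-11. Genes were chosen by symbol alone, as every protein-coding gene named NDUF with the series letter of a subunit (A, B, C, S, V or AB) or of an assembly factor (AF) and a number. By this rule 47 genes were found, and all 47 were listed both among the 21479 genes of the cultured cells and among the 26813 human genes of the xenograft tumors. Of these, 37 encode structural subunits and 8 encode assembly factors. The other 2, NDUFA4, which belongs to cytochrome c oxidase, and its relative NDUFA4L2, are not subunits of complex I in spite of their names.

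Complex I (NADH:ubiquinone oxidoreductase) is the entry enzyme of the respiratory chain, takes electrons from NADH, and passes them through a flavin and a row of iron-sulfur clusters to ubiquinone while it pumps protons across the inner mitochondrial membrane. It is shaped like an L. The arm in the matrix consists of the N module, where NADH is oxidized, and the Q module, where ubiquinone is reduced, while the membrane arm holds the proton pumps, whose core subunits are encoded by mitochondrial DNA and are surrounded by nuclear accessory subunits. Assembly factors bring the parts together and are not found in the finished enzyme.

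The cells carried a lentiviral vector with green fluorescent protein and either a non-silencing hairpin (shCtrl) or 1 of 2 hairpins against CDH11 (sh#1 and sh#2). Infected cells were sorted by fluorescence, so that each line was a pool of infected cells and not a clone, and the shCtrl cells carried the vector as well. Cultured cells (3 libraries per group) were grown for 24 hours before RNA was extracted. For tumors (5 per group), the same lines were injected in Matrigel under the skin of 5-week-old male nude mice (BALB/cAJcl-nu/nu), which lack a thymus but provide other host cells, and tissue was taken after 4 weeks. CDH11 KD means both hairpins together (6 cultured libraries, 10 tumors). No source used here says that the cultured libraries came from separate cultures, so their p-values measure only the spread between these libraries, which may be technical.

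Totals were 2273182 to 2777019 counts per cultured library and 414849 to 1248977 human counts per tumor. Among 11 markers (epithelial and urothelial genes and the mesenchymal gene VIM), KRT7, KRT8, KRT18, VIM and UPK1A passed the low-count filter in cultured cells, while CDH1, EPCAM, UPK1B and UPK3A were at 0 in every cultured library. KRT18 was higher with sh#1, and VIM and UPK1A were higher with sh#2. CDH11 itself had 2, 4 and 4 counts in shCtrl cells, 0, 0 and 1 with sh#1 and 1, 2 and 0 with sh#2, too few for a test. In CDH11 KD tumors it was at -1.13 on the log2 scale relative to shCtrl (standard error 0.33, q = 0.112, edgeR), with -1.67 (q = 0.026, edgeR) for sh#1 and -0.73 (q = 0.347, edgeR) for sh#2, whose tumors at 3.82 to 18.8 normalized CPM overlapped the shCtrl tumors at 7.66 to 28.5. Mouse genes took from 10.35% to 30.02% of all counts of a tumor, with the highest share in sh#1 tumor 1. There the summed muscle and fat markers of the mouse reached 1754 and 2279 CPM of mouse and human counts together. All listed markers of mouse endothelium, fibroblasts, macrophages, muscle and fat had counts. Each group of tumors was a library mix of its own, so that the effects of mix and group cannot be told apart.

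In cultured CDH11 KD cells, NDUFC2 fell, NDUFB7 fell by less, and NDUFA1, NDUFC1, NDUFB4 and NDUFB3 rose. All 6 encode accessory subunits of the membrane arm, of which 21 were tested. Of all 46 genes that passed the low-count filter (NDUFA4L2 had 0 or 1 count per library), 4 were higher and 2 lower at a q value (p-value adjusted by Benjamini-Hochberg over all genes) under 0.05 in edgeR's quasi-likelihood test. Of the 9859 genes tested, 9.12% were called higher and 8.32% lower, so that the complex I genes were called about as often as genes in general. Of the complex I values, 29 were above 0 and 17 below, where 50% of all genes were above 0. An unadjusted p under 0.05 was found for 19. The share of all genes at that p was not computed, here or in later comparisons. The median log2 fold change of the complex I genes was 0.09, against 0.00017 over all genes. The direction of this median depended on the scaling. When counts were divided by library totals without composition factors, the median of all genes moved to -0.16, that of the complex I genes to -0.07, 0 complex I genes were higher and 3 lower (517 and 1377 over all genes, against 899 and 820). Relative to all genes, their median was thus higher under both scalings.

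The numbers also moved when single libraries were left out, and with them the shares of all genes. Without shCtrl replicate 1, 1 gene was higher and 1 lower, against 5.1% and 4.51% of all genes. Without shCtrl replicate 2, the numbers were 2 and 1, against 5.12% and 4.59%, and without sh#1 replicate 2 they were 5 and 4, against 9.53% and 8.43%. With 3 groups fitted and the hairpins averaged, the same comparison gave 15 higher and 5 lower, where 16.5% and 16.8% of all genes were called.

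NDUFC2 (ENSG00000151366, chromosome 11, 78068297 to 78079862, minus strand), an accessory subunit at the inner part of the membrane arm, was at 178, 207 and 188 normalized CPM (read counts scaled to library size, after TMM normalization) in the shCtrl libraries. It was at 107, 108 and 92.3 with sh#1 and at 51.3, 73.6 and 64.8 with sh#2. The 3 groups did not overlap, with sh#2 lowest. The log2 fold change was -1.20 (standard error 0.20, q = 0.00207, edgeR) in CDH11 KD, -0.90 (q = 1.57e-11, edgeR) with sh#1 and -1.60 (q = 3.12e-19, edgeR) with sh#2, and sh#1 was 0.70 above sh#2 (standard error 0.11, q = 1.78e-06, edgeR). NDUFC2 was past the threshold in all 18 alternatives of the comparison of both hairpins, from -1.34 to -1.09. The sum of all 37 subunits without NDUFC2 was 5664 ± 209 (SD, n = 3) normalized CPM with shCtrl, 6163 ± 163 with sh#1 and 5912 ± 71.4 with sh#2. As a share of all counts, without composition factors, this sum was 0.608% with shCtrl, 0.631% with sh#1 and 0.531% with sh#2. Its direction with sh#2 thus depended on the scaling.

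The primers the study designed to measure NDUFC2 by PCR are shown because they mark which part of this transcript that assay reads, with all bases in lower case.
NDUFC2 forward primer: cggcctgattgataacctaatcc
NDUFC2 reverse primer: aagctggcgatgcaaacca
In the canonical transcript of GENCODE they enclose a product of 64 bases. The forward primer lies in exon 1 (hg38, chromosome 11, 78079603 to 78079625), and the reverse primer crosses the junction of exon 1 (78079579 to 78079580, 2 bases) and exon 2 (78073125 to 78073141, 17 bases), all within the coding sequence. The forward primer was found in all 5 annotated NDUFC2 transcripts and in 4 of 4 transcripts of the readthrough gene NDUFC2-KCTD14, and the reverse primer in 3 of 5 and 2 of 4. The readthrough gene was counted 18 times in sh#1 replicate 3 and was at 0 elsewhere in culture, so that adding its counts to NDUFC2 changed no call among the complex I genes.

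NDUFB7 (ENSG00000099795, chromosome 19, 14566078 to 14572066, minus strand), an accessory subunit on the intermembrane space side of the membrane arm, was at 176, 176 and 182 normalized CPM in shCtrl cells, at 169, 155 and 145 with sh#1 and at 121, 140 and 132 with sh#2. All CDH11 KD libraries lay below the shCtrl libraries, and all sh#2 libraries below the sh#1 libraries. The log2 fold change was -0.31 (standard error 0.10, q = 0.0419, edgeR) in CDH11 KD, -0.45 (q = 1.36e-05, edgeR) with sh#2 and -0.19 (q = 0.0747, edgeR) with sh#1. The call with both hairpins was lost without any 1 of the 3 shCtrl or the 3 sh#2 libraries or sh#1 replicate 3 (q from 0.0506 to 0.152, edgeR), without the low-count filter (q = 0.0567, edgeR), with a replicate block (q = 0.0871, edgeR) and by DESeq2 (q = 0.0525), while the call with sh#2 was kept in all 17 alternatives.

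NDUFA1 (ENSG00000125356, chromosome X, 119871832 to 119876662, plus strand), a small subunit needed for assembly of the enzyme, was at 254, 299 and 281 normalized CPM in shCtrl cells, at 323, 360 and 406 with sh#1 and at 364, 378 and 412 with sh#2. Every CDH11 KD library lay above every shCtrl library, and the ranges of the hairpins overlapped. The log2 fold change was 0.43 (standard error 0.09, q = 0.00458, edgeR) in CDH11 KD, with 0.39 for sh#1 and 0.47 for sh#2, and it was past the threshold in 17 of 18 alternatives, the exception being library totals without composition factors (0.26, q = 0.0532, edgeR).

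NDUFC1, which lies near NDUFC2 in the membrane arm, was at 172, 192 and 201 normalized CPM in shCtrl cells, at 228, 257 and 239 with sh#1 and at 287, 234 and 233 with sh#2. NDUFB4 was at 225, 251 and 233 in shCtrl cells, at 267, 297 and 265 with sh#1 and at 361, 317 and 294 with sh#2. NDUFB3 was at 84.2, 95.1 and 104 in shCtrl cells, at 117, 112 and 115 with sh#1 and at 113, 119 and 131 with sh#2. In these 3 genes all CDH11 KD libraries were above all shCtrl libraries. The log2 fold changes in CDH11 KD were 0.39 for NDUFC1 (standard error 0.10, q = 0.0094, edgeR), 0.34 for NDUFB4 (standard error 0.10, q = 0.0249, edgeR) and 0.32 for NDUFB3 (standard error 0.10, q = 0.0333, edgeR). Without shCtrl replicate 1 none of these 3 calls was kept (q = 0.0745, 0.121 and 0.178, edgeR). NDUFB4 was also not called without shCtrl replicate 2 (q = 0.0576) or 3 (q = 0.106), and NDUFB3 not without shCtrl replicate 2 (q = 0.101), sh#2 replicate 2 (q = 0.0509) or sh#2 replicate 3 (q = 0.0608), all by edgeR. With a replicate block NDUFB4 (q = 0.0564) and NDUFB3 (q = 0.0537) were not called, NDUFB3 was not called under upper quartile normalization (q = 0.0594), and none of the 3 was called under library totals (q = 0.128 for NDUFC1, 0.173 for NDUFB4 and 0.317 for NDUFB3), again by edgeR.

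**Figure D1:**
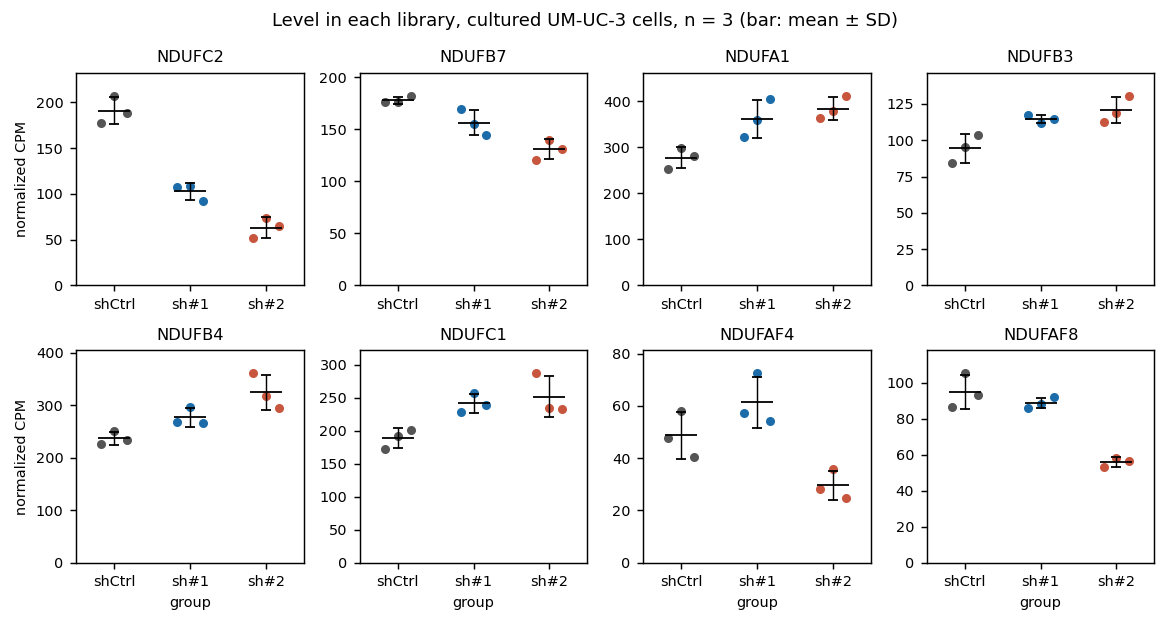
Normalized CPM of 8 complex I genes in each cultured library (points), with the mean and SD of the 3 libraries per group (bars), and every axis starting at 0. NDUFC2 steps down from shCtrl (178 to 207) to sh#1 (92.3 to 108) and sh#2 (51.3 to 73.6), NDUFA1 is higher in every CDH11 KD library, and NDUFAF4 and NDUFAF8 are low with sh#2 and not with sh#1.

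The hairpins were then compared with shCtrl one by one, and since both comparisons share the 3 shCtrl libraries their values are given side by side and not as support for each other. With sh#1, 11 complex I genes were higher and 2 lower, against 11.8% and 10.6% of all genes, with a median of 0.14 (all genes, -0.0076). With sh#2, 10 were higher and 10 lower, against 19.5% and 18.8% of all genes, with a median of 0.06 (all genes, -0.0063). NDUFA1, NDUFB3, NDUFB4, NDUFC1 and NDUFS5 were called higher and NDUFC2 and NDUFS8 lower with each hairpin. Under library totals the numbers were 8 and 4 with sh#1 (856 and 1397 over all genes) and 2 and 22 with sh#2 (956 and 3641 over all genes, whose median moved to -0.27). Under upper quartile normalization, sh#2 gave 5 higher and 10 lower, against 17.2% and 20.9% of all genes. Without sh#2 replicate 3, it gave 6 higher and 8 lower, against 16.9% and 15.4%.

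In the N module, where the core subunits NDUFV1, NDUFV2 and NDUFS1 carry the flavin and iron-sulfur clusters, different genes passed the threshold with each hairpin. NDUFA12, the accessory subunit that takes the place of the assembly factor NDUFAF2 in the finished enzyme, was at 84.6, 98.0 and 97.2 normalized CPM in shCtrl cells, at 122, 128 and 129 with sh#1 and at 98.5, 88.4 and 102 with sh#2. The sh#1 libraries stood above all others, 0.44 above shCtrl on the log2 scale (standard error 0.09, q = 0.000188, edgeR) against 0.05 (q = 0.739, edgeR) with sh#2, and the difference between the hairpins was 0.39 (q = 0.000988, edgeR). NDUFS6, an accessory subunit that binds zinc, was lower with sh#2 (-0.47, q = 3.06e-07, edgeR), where its values of 200, 213 and 216 normalized CPM lay below 257 to 278 with sh#1 and 268 to 301 with shCtrl. NDUFV2 was lower (-0.20, q = 0.0486, edgeR) and NDUFS4 higher (0.37, q = 0.0294, edgeR) with sh#2, and both calls were lost in several alternatives, with 8 and 11 of 17 kept. NDUFV1, NDUFS1, NDUFV3 and NDUFA2 were not past the threshold with either hairpin.

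In the Q module, NDUFS8, a core subunit with iron-sulfur clusters, was lower with sh#1 (-0.20, q = 0.0459, edgeR) and with sh#2 (-0.28, q = 0.00333, edgeR). Its libraries were at 180, 202 and 192 normalized CPM in shCtrl cells, at 158, 177 and 165 with sh#1 and at 152, 163 and 159 with sh#2, so that CDH11 KD and shCtrl did not overlap. The call with sh#1 was lost by DESeq2, without the low-count filter, and without shCtrl replicate 2 or 3, sh#1 replicate 1 or 3, or sh#2 replicate 2 or 3. The number of genes lower with sh#1 then came to 1 in each case but that of sh#1 replicate 1. Over all genes, 6% to 10.5% were lower in these cases. NDUFS3 (0.32, q = 0.00463, edgeR) and the accessory subunit NDUFA6 (0.39, q = 0.000555, edgeR) were higher with sh#1, and NDUFS7 (0.35, q = 0.0464, edgeR) with sh#2. The NDUFS7 call was lost by DESeq2, under upper quartile normalization or library totals, and with at least 10 counts in every library. It was also lost without shCtrl replicate 2 or 3 or sh#2 replicate 1 or 3. NDUFA5, NDUFA7 and NDUFA9 were not past the threshold with either hairpin.

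In the membrane arm, 6 of 21 accessory genes were higher and 1 lower with sh#1 (11.8% and 10.6% of all genes), and 8 were higher and 5 lower with sh#2 (19.5% and 18.8% of all genes). Beyond those described, NDUFB5 was higher with sh#1 (0.35, q = 0.0018, edgeR), and NDUFB8 (0.35), NDUFB11 (0.29) and NDUFB2 (0.21) were higher with sh#2 (q = 4.66e-05, 0.0248 and 0.0132, edgeR). NDUFS5 was higher with sh#1 (0.26, q = 0.00252, edgeR) and with sh#2 (0.17, q = 0.0391, edgeR). NDUFAB1, the acyl carrier protein of mitochondria (-0.30), NDUFB10 (-0.29) and NDUFA13 (-0.25) were lower with sh#2 (q = 0.00189, 0.0208 and 0.0382, edgeR). NDUFA10, NDUFA11, NDUFB1 and NDUFB6 were not past the threshold with either hairpin or between the hairpins. With sh#2, members of this arm thus moved both ways, and its median was 0.10, as with sh#1 (0.10).

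The largest difference between the hairpins was in an assembly factor. NDUFAF4, which works with NDUFAF3 on the early Q module, was at 47.6, 58.2 and 40.4 normalized CPM in shCtrl cells, at 57.4, 72.6 and 54.3 with sh#1 and at 28.0, 35.8 and 24.8 with sh#2. NDUFAF8, the partner of the methyltransferase-like factor NDUFAF5, was at 86.6, 105 and 93.4 in shCtrl cells, at 86.1, 88.2 and 91.9 with sh#1 and at 53.2, 58.3 and 56.5 with sh#2. For both, every sh#2 library lay below every other library. The log2 fold change of NDUFAF4 was -0.72 with sh#2 (standard error 0.16, q = 0.000252, edgeR) and 0.33 with sh#1 (q = 0.0712, edgeR), and that of NDUFAF8 was -0.76 (standard error 0.11, q = 6.19e-08, edgeR) and -0.10 (q = 0.529, edgeR). In the comparison of both hairpins together neither was called, NDUFAF4 at -0.08 and NDUFAF8 at -0.38 (q = 0.144, edgeR).

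NDUFAF5, which modifies the core subunit NDUFS7, was at 9.84, 13.1 and 13.7 normalized CPM in shCtrl cells, at 15.6, 17.4 and 21.8 with sh#1 and at 16.3, 18.6 and 10.7 with sh#2. Its rise with sh#1 of 0.59 (standard error 0.22, q = 0.0444, edgeR) was kept in 9 of 17 alternatives. The call was lost by DESeq2 and under upper quartile normalization or library totals. It was also lost without any 1 of the shCtrl libraries, sh#1 replicate 2 or sh#1 replicate 3. The summed level of the 8 assembly factors was 286 ± 18.03 (SD, n = 3) normalized CPM with shCtrl, 315 ± 8.84 with sh#1 and 235 ± 13.4 with sh#2. NDUFAF1, which acts with ACAD9 on the membrane arm, was at 5.51, 4.92 and 4.95 normalized CPM in shCtrl cells, at 11.1, 8.26 and 6.69 with sh#1 and at 6.53, 10.03 and 7.31 with sh#2. NDUFAF7, a methyltransferase, was at 9.45, 9.43 and 8.77 in shCtrl cells, at 10.7, 14.3 and 15.9 with sh#1 and at 10.7, 16.7 and 11.7 with sh#2. In both, all CDH11 KD libraries lay above the shCtrl libraries, but at these low levels the log2 fold changes of 0.69 (standard error 0.27, q = 0.0858, edgeR) and 0.54 (standard error 0.22, q = 0.0985, edgeR) did not pass the threshold. NDUFAF2, NDUFAF3 and NDUFAF6 were not past the threshold with either hairpin. NDUFA4 was higher with sh#1 (0.31, q = 0.000201, edgeR) and at 0.14 with sh#2 (q = 0.0719, edgeR).

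**Figure D2:**
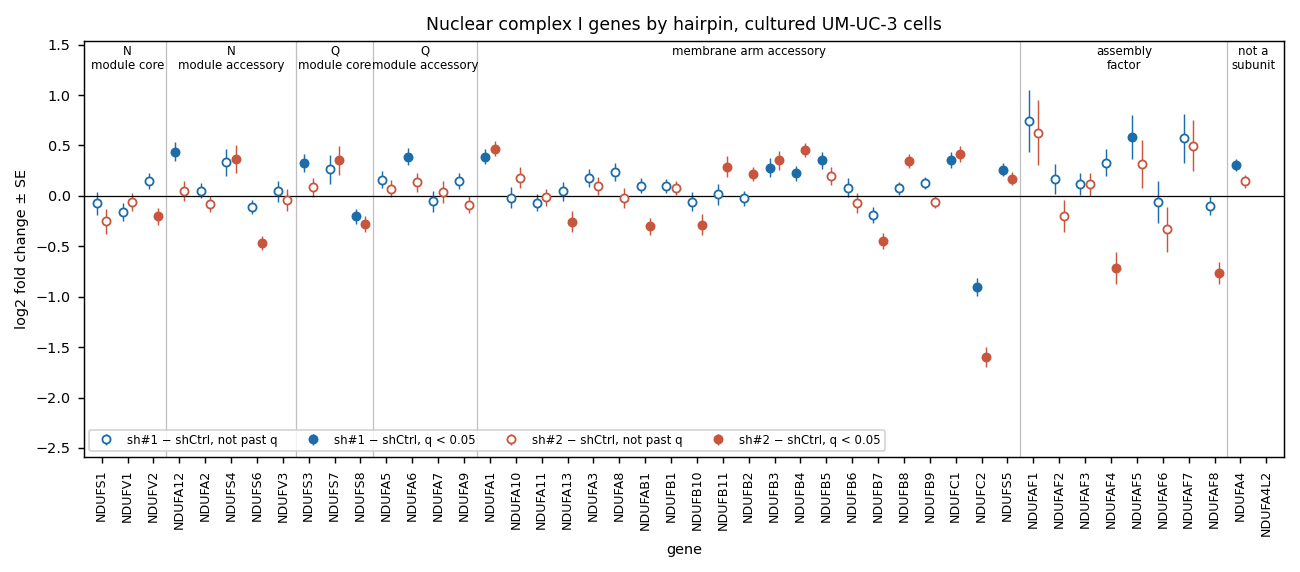
Log2 fold change (points) and standard error (bars) of complex I genes tested in cultured cells, for sh#1 and for sh#2 against shCtrl, ordered by module, with filled points at q under 0.05. NDUFC2 stands lowest with both hairpins (-0.90 and -1.60), and NDUFAF4 and NDUFAF8 are far below 0 with sh#2 (-0.72 and -0.76) but not with sh#1.

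The hairpins were also compared with each other, in the same fit of 3 groups, so that the shCtrl libraries enter the filter, the normalization and the estimate of the spread but not the difference itself. Of 46 genes, 14 were higher and 4 lower with sh#1 than with sh#2, against 11.2% and 13.5% of all genes, with a median of 0.13 (all genes, 0.0071). The largest differences were in NDUFAF4 (1.05, standard error 0.15, q = 5.19e-07, edgeR), NDUFC2 (0.70) and NDUFAF8 (0.67, q = 3.56e-06, edgeR), and all 3 calls were kept in all 17 alternatives. NDUFAB1, NDUFA12, NDUFS6, NDUFV2, NDUFA13, NDUFB7, NDUFA8, NDUFA6, NDUFS3, NDUFA9 and NDUFB9 were also higher with sh#1, from 0.19 to 0.40. NDUFB8, NDUFB11, NDUFB2 and NDUFB4 were higher with sh#2, from 0.23 to 0.27. All 8 assembly factors had values above 0, where 50.8% of all genes did. Under library totals the numbers were 27 and 0, with 2509 and 637 over all genes and an all-gene median of 0.20, against 1100 and 1331 with composition factors. Without sh#1 replicate 2 or without sh#2 replicate 1, 8 genes were higher (8.53% and 8.97% of all genes). Without sh#1 replicate 1, 1 was lower (11.1% of all genes). Without sh#1 replicate 3, sh#2 replicate 1 or sh#2 replicate 3, 2 were lower (11.4%, 11.6% and 11.3% of all genes).

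To see what sequence the promoters of these genes share, the 150 bases before each start site in RefSeq's annotation of the genome build GRCh38 were read. Of the 47 genes, 39 had such a window. Short motifs of factors known for respiratory chain genes were counted on both strands, with no overlap between motifs removed. The core TGCGCA of NRF1 was found in 6 genes (15.4%, against 6.34% of 27305 genes), CCGGAAG of GABPA in 6 (15.4% against 8.33%), AAGGTCA of the estrogen-related receptors in 2 (5.13% against 2.45%), ACGTG of the hypoxia-inducible factors in 7 (17.9% against 15.2%) and the letters of YY1, AAGATGGCG, in 0 (0.516% of all genes). The 27305 genes were all those with a window and were not limited to protein-coding genes, while the 39 are all protein-coding. The shares are thus from unlike sets, and whether they differ among protein-coding genes alone was not tested. A match describes the letters in this window and is not a measured site.

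Promoters with a match are shown for 4 genes on which the comparisons turn, NDUFA1 and NDUFB4 (higher with both hairpins), NDUFB7 (lower in cultured cells) and NDUFAF4 (different between hairpins), with the bases nearest the start at the right end of each, bases in annotated exons left out and the motif matches in capitals.
NDUFA1 (GRCh38, chrX:119871734-119871831, plus strand, GABPA on the other strand and hypoxia-inducible factor): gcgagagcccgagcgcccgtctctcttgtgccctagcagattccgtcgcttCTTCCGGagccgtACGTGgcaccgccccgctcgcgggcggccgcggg
NDUFB4 (GRCh38, chr3:120596186-120596327, plus strand, estrogen-related receptor): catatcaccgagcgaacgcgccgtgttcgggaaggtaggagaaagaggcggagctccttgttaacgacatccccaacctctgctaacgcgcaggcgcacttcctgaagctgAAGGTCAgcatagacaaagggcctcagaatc
NDUFB7 (GRCh38, chr19:14572067-14572216, minus strand, GABPA): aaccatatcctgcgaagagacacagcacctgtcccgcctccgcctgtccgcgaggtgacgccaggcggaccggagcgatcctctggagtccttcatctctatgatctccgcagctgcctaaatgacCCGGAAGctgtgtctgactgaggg
NDUFAF4 (GRCh38, chr6:96897892-96898041, minus strand, GABPA): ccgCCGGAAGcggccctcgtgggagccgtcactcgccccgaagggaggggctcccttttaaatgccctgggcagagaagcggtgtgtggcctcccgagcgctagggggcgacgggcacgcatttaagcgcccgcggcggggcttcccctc
These 4 were picked among such genes because they hold a match, so that they do not stand for the whole group. The windows of NDUFB3, NDUFC1, NDUFA3 and NDUFAF3, on which the comparisons turn as well, hold none of these motifs. NDUFA12 (NRF1 and hypoxia-inducible factor), NDUFAF5 (hypoxia-inducible factor) and NDUFAF8 (GABPA) hold matches too and are not shown. NDUFC2 and NDUFB9 had no window.

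In the tumors, NDUFB7 was higher and NDUFAF3 lower in CDH11 KD than in shCtrl, and most other complex I genes had values below 0 without passing the threshold. Of the 47 genes, 43 passed the low-count filter. NDUFA4L2 (0 or 1 count per tumor), NDUFV2 (0 to 4), NDUFA7 (1 to 4) and NDUFS7 (1 to 9) did not, although the latter 3 were well measured in cultured cells. Over all tumors, NDUFV2 had 18 human counts and its mouse ortholog 218, and for NDUFA7 and NDUFS7 the mouse ortholog took 70.9% and 55.3% of the counts of both species, while the ortholog's share was at most 16.8% in each tested gene other than NDUFB1, whose ortholog was not analysed here. How reads were assigned to species was not given in the sources used here, and its part in these low counts was not tested.

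At a q value under 0.1, 1 of 43 genes was higher and 1 lower in CDH11 KD tumors, against 0.697% and 0.817% of the 9184 genes tested. The median log2 fold change was -0.15 (all genes, 0.0055), with 36 values below 0 and 7 above, where 51.1% of all genes were above 0. An unadjusted p under 0.05 was found for 11 genes, with no share of all genes computed. Values are relative to all human counts of a tumor, and in bulk tissue a smaller part of the human cells with RNA of these genes and less of it per cell cannot be told apart. The summed level of the 37 subunits was 4764 ± 521 (SD, n = 5) normalized CPM in shCtrl tumors, 4427 ± 261 with sh#1 and 4120 ± 195 with sh#2. Here shCtrl tumor 5 stood apart, at 3879 against 4747 to 5207 in the other shCtrl tumors. Without it, 8 genes were lower in CDH11 KD (NDUFA2, NDUFA6, NDUFAB1, NDUFAF3, NDUFB10, NDUFB9, NDUFS6 and NDUFS8), against 2.17% of all genes, and the median was -0.23. With sh#1 tumor 1 left out as well, an alternative chosen after seeing the data, 7 were lower, against 2.36% of all genes. Leaving out the lowest shCtrl sum raises the shCtrl level that CDH11 KD is compared with. Without shCtrl tumor 1, 3 or 4 or sh#2 tumor 1, 2, 4 or 5, 0 were lower, against 0.29% to 0.813% of all genes.

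NDUFB7 was at 111, 109, 84.4, 146 and 85.8 normalized CPM in the shCtrl tumors, at 142, 167, 163, 178 and 160 with sh#1 and at 131, 126, 143, 153 and 136 with sh#2. All 10 CDH11 KD tumors lay above the shCtrl mean of 107, and shCtrl tumor 4 lay within their range. The log2 fold change was 0.47 (standard error 0.12, q = 0.0558, edgeR) in CDH11 KD, 0.59 (standard error 0.13, q = 0.0148, edgeR) with sh#1 and 0.35 (q = 0.212, edgeR) with sh#2. Without shCtrl tumor 1, 2 or 3 the call with both hairpins was lost (q = 0.156, 0.137 and 0.159, edgeR), while that with sh#1 was kept in all 25 alternatives. Mouse Ndufb7 had 114 counts over the 15 tumors, against 1757 of the human gene.

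NDUFAF3 (ENSG00000178057, chromosome 3), the assembly factor that works with NDUFAF4, was at 77.8, 63.8, 81.0, 96.1 and 84.3 normalized CPM in the shCtrl tumors, at 47.2, 65.6, 70.0, 59.8 and 65.7 with sh#1 and at 35.5, 36.3, 66.1, 49.1 and 51.6 with sh#2. All 10 CDH11 KD tumors lay below the shCtrl mean of 80.6, and shCtrl tumor 2 lay within their range. The log2 fold change was -0.53 (standard error 0.15, q = 0.0802, edgeR) in CDH11 KD, -0.36 (q = 0.383, edgeR) with sh#1 and -0.74 (standard error 0.17, q = 0.0129, edgeR) with sh#2. When the fit took in the mouse-to-human ratio, the value was -0.45 (q = 0.246, edgeR), and the call with both hairpins was also lost without shCtrl tumor 1, 3 or 4 or sh#2 tumor 1, 2, 4 or 5 (q from 0.106 to 0.272, edgeR). The call with sh#2 was kept in all 25 alternatives. In cultured cells NDUFAF3 was at 0.12 (q = 0.458, edgeR).

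With sh#1, 1 complex I gene was higher and 0 lower in tumors (0.773% and 0.708% of all genes), 6 had an unadjusted p under 0.05, and DESeq2 also called 0 lower. With sh#2, 0 were higher and 3 lower (1.36% and 1.32% of all genes), 13 had an unadjusted p under 0.05, and DESeq2 called 0 higher as well. The 3 were NDUFAF3, NDUFA3 and NDUFB9. Without shCtrl tumor 5, sh#2 gave 9 lower (3.11% of all genes), and 1 was left without shCtrl tumor 1 or 3 or sh#2 tumor 1, 2 or 3, as with the mouse ratio as a covariate. The median was -0.10 with sh#1 and -0.19 with sh#2, and both comparisons use the same shCtrl tumors.

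NDUFA3, a small accessory subunit of the membrane arm, was at 84.3, 77.9, 83.2, 73.8 and 84.3 normalized CPM in the shCtrl tumors, at 77.7, 104, 76.4, 80.5 and 88.9 with sh#1 and at 44.1, 45.7, 55.6, 74.7 and 51.6 with sh#2. It was lower with sh#2 (-0.55, standard error 0.15, q = 0.0594, edgeR), at 0.10 with sh#1, and it was the 1 gene that differed between the hairpins (0.64, standard error 0.16, q = 0.0438, edgeR), with 0.642% of all genes higher and 0.544% lower with sh#1 than with sh#2. The difference was lost without sh#1 tumor 2 or 5 or sh#2 tumor 1 or 2. NDUFB9 was at 567, 593, 559, 601 and 406 in the shCtrl tumors, at 452, 450, 460, 511 and 419 with sh#1 and at 422, 380, 420, 491 and 409 with sh#2. It was lower with sh#2 (-0.36, standard error 0.11, q = 0.0933, edgeR), a call kept in 12 of 25 alternatives, and shCtrl tumor 5 was below the 4 other shCtrl tumors.

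NDUFC2 was at 77.8, 77.9, 69.6, 99.6 and 58.2 normalized CPM in the shCtrl tumors, at 44.4, 67.8, 73.2, 74.0 and 79.8 with sh#1 and at 59.7, 72.5, 70.9, 53.4 and 61.1 with sh#2. The groups overlapped, and the log2 fold change was -0.21 (standard error 0.14, q = 0.537, edgeR), with -0.15 for sh#1 and -0.29 for sh#2. NDUFA1 was at 96.3, 121, 103, 105 and 93.5 in the shCtrl tumors, at 94.3, 92.7, 81.7, 101 and 74.8 with sh#1 and at 64.0, 77.9, 101, 106 and 85.9 with sh#2. Its value was -0.24 (standard error 0.12, q = 0.412, edgeR). NDUFC1, NDUFB4 and NDUFB3, higher in cultured cells, were at -0.05, -0.16 and -0.25 in tumors, and none passed the threshold.

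**Figure D3:**
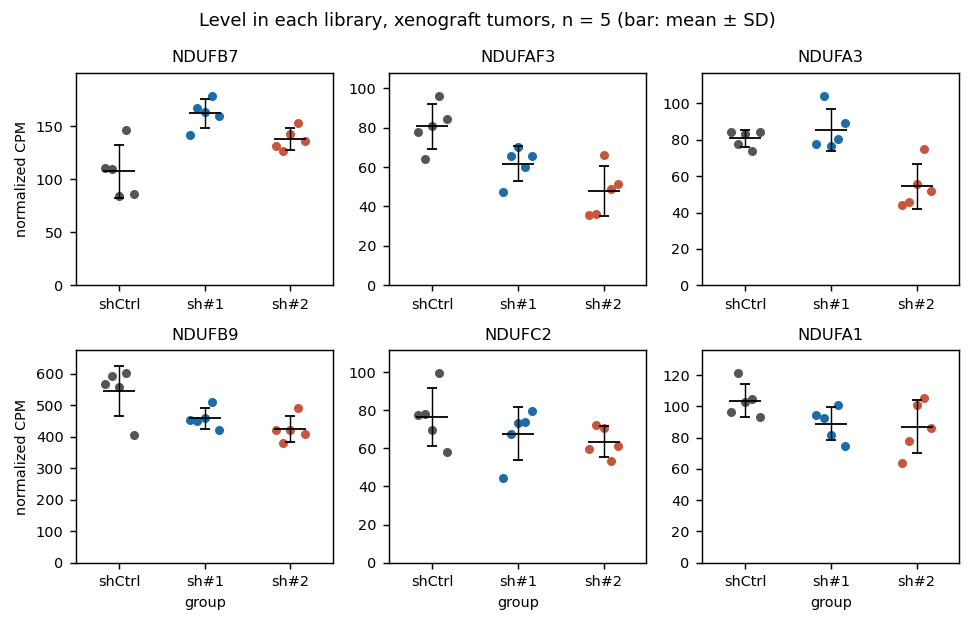
Normalized CPM of 6 complex I genes in each tumor (points), with the mean and SD of the 5 tumors per group (bars), and every axis starting at 0. NDUFB7 is above the shCtrl mean of 107 in all 10 CDH11 KD tumors, NDUFAF3 is below the shCtrl mean of 80.6 in all 10, NDUFA3 is low with sh#2, and NDUFC2 and NDUFA1 overlap between groups.

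By module, values below 0 in CDH11 KD tumors were found for 5 of 5 accessory genes of the N module, 3 of 3 accessory genes of the Q module, 2 of 3 core genes of the Q module, 1 of 2 core genes of the N module, 17 of 21 accessory genes of the membrane arm and 7 of 8 assembly factors. Over all genes tested in these tumors, 51.1% of values were above 0. The medians of the complex I modules ran from -0.29 in the Q module accessory genes to -0.05 in the N module core genes. Of these 42 genes, NDUFB7 and NDUFAF3 alone passed the threshold with both hairpins and all tumors. Genes that missed the threshold at an unadjusted p under 0.05 included NDUFB10 (-0.39, q = 0.183, edgeR), NDUFS8 (-0.34, q = 0.231, edgeR), NDUFA6 (-0.34, q = 0.205, edgeR) and NDUFB9 (-0.31, q = 0.153, edgeR). Genes with values above 0 included NDUFB7, NDUFA10 (0.13), NDUFS5 (0.05), NDUFAF1 (0.04), NDUFS1 (0.03) and NDUFB11 (0.03). NDUFA4 was at -0.12 (q = 0.699, edgeR).

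**Figure D4:**
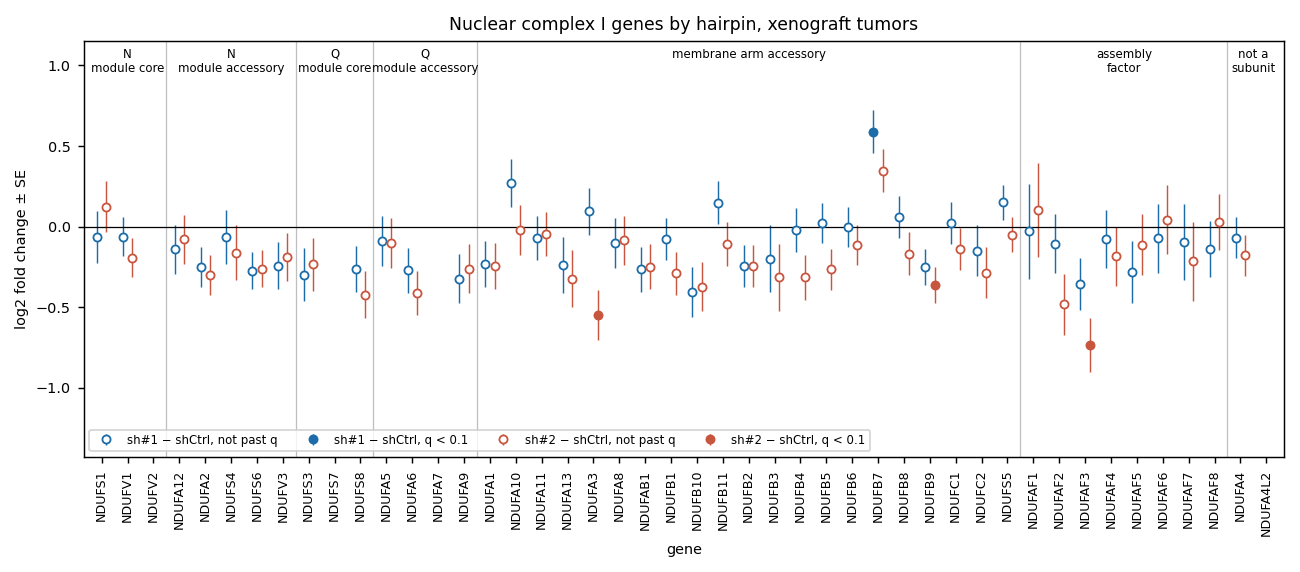
Log2 fold change (points) and standard error (bars) of complex I genes tested in tumors, for sh#1 and for sh#2 against shCtrl, ordered by module, with filled points at q under 0.1. Most points lie below 0, NDUFB7 is the highest with both hairpins (0.59 and 0.35), and NDUFAF3 is the lowest with sh#2 (-0.74).

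**Figure D5:**
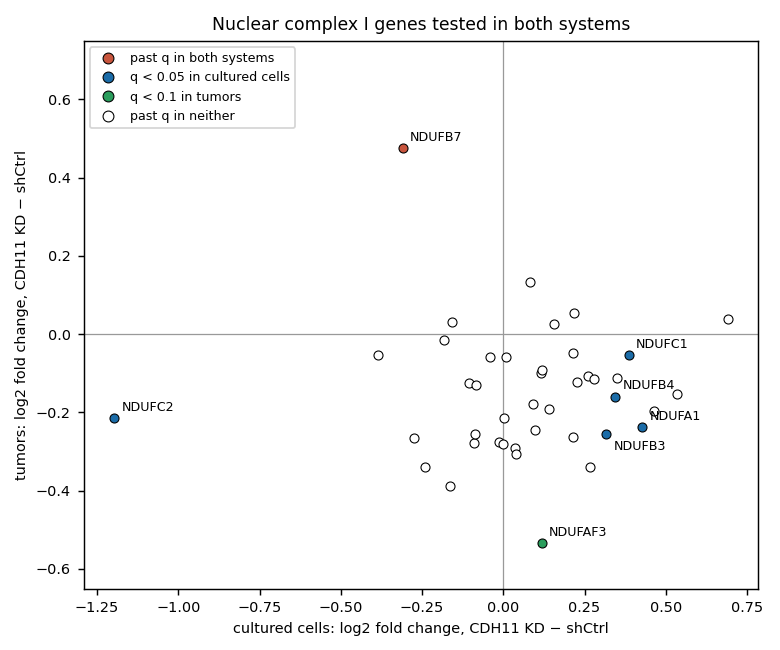
Log2 fold change of CDH11 KD against shCtrl in cultured cells (horizontal) and tumors (vertical) for complex I genes tested in both. NDUFC2 lies far to the left (-1.20) and near the other genes in tumors (-0.21), and NDUFB7 lies to the left and highest (-0.31 and 0.47).

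The other genes of the pathway were taken from lists of partners, and their numbers in cultured CDH11 KD cells stand against 9.12% of all genes higher and 8.32% lower. In cultured CDH11 KD cells, 1 of 7 complex I subunits encoded by mitochondrial DNA was higher, MT-ND6 (0.59, q = 0.0111, edgeR), and 3 were lower, MT-ND2 (-0.97, q = 9.24e-07, edgeR), MT-ND3 (-0.92, q = 1.15e-06, edgeR) and MT-ND1 (-0.71, q = 4.94e-05, edgeR). MT-ND3 was at 10080, 10690 and 10420 normalized CPM in shCtrl cells, at 5788, 5770 and 5890 with sh#1 and at 4849, 5124 and 5552 with sh#2. Its level was lower in every CDH11 KD library, while MT-ND4 (0.14, q = 0.297, edgeR), MT-ND4L (0.25, q = 0.0553, edgeR) and MT-ND5 (0.12, q = 0.727, edgeR) did not pass the threshold.

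Of 12 other assembly factors, ACAD9, which helps to build the membrane arm, was higher (0.43) and TIMMDC1, an assembly factor of the same arm, lower (-0.59) in cultured CDH11 KD cells. TIMMDC1 was at 129, 109 and 126 normalized CPM in shCtrl cells, at 93.5, 86.1 and 89.5 with sh#1 and at 74.2, 71.7 and 67.7 with sh#2, without overlap between the groups. Of 14 genes of iron-sulfur cluster assembly, BOLA3 (0.45) and NFU1 (0.42), which deliver clusters to their targets, were higher, the other 12 did not pass the threshold, and 3 of the 14 had an unadjusted p under 0.05.

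Of 9 tested genes for transcription of the respiratory chain, 4 were lower, which were the coactivators PPARGC1B (-1.81) and PPRC1 (-0.93), the mitochondrial transcription factor TFB2M (-0.97) and YY1 (-0.64). PPARGC1B had few counts, with 34, 22 and 25 in shCtrl cells, 11, 8 and 11 with sh#1 and 3, 4 and 5 with sh#2. TFB2M was low as well, with 30, 30 and 32 counts in shCtrl cells, 21, 20 and 18 with sh#1 and 3, 12 and 12 with sh#2. YY1 was at 178, 152 and 148 normalized CPM in shCtrl cells, at 125, 116 and 135 with sh#1 and at 77.9, 85.1 and 71.6 with sh#2. Of 8 genes of supercomplexes and quality control, LONP1, a protease of the matrix, was higher (1.04), with 50.8 to 55.3 normalized CPM in shCtrl cells, 83.2 to 87.0 with sh#1 and 109 to 145 with sh#2. The median of the transcription list was -0.51, against 0.25 for iron-sulfur cluster assembly and 0.02 for the other assembly factors.

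In CDH11 KD tumors 0 genes of these 5 lists passed the threshold in edgeR's test, against 0.697% of all genes higher and 0.817% lower. An unadjusted p under 0.05 was found for 4 of 11 other assembly factors and 3 of 7 subunits encoded by mitochondrial DNA. The same held for 0 of 13 iron-sulfur cluster genes, 1 of 9 transcription genes and 1 of 8 genes of supercomplexes and quality control. The share of all genes at that p was not computed. By hairpin, MT-ND4 was higher with sh#1 (0.33, q = 0.0958, edgeR) and FOXRED1, an assembly factor, was lower with sh#2 (-0.70). TIMMDC1, lower in cultured cells, was at 72.0 to 98.7 normalized CPM in shCtrl tumors, 38.9 to 83.8 with sh#1 and 59.1 to 66.1 with sh#2, with an overlap between sh#1 and shCtrl.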

How the data were processed

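Gene counts of 9 cultured libraries and 15 tumors were used as deposited by the authors. Cultured reads (single, 75 bases, NextSeq 500) were trimmed with CLC and mapped to hg38, and tumor reads (NovaSeq6000) were trimmed with trim galore and mapped with HISAT2 to hg38. Counting tool, strand, molecular identifiers and the separation of human and mouse reads were not given in the sources used here. A few genes are not reported here.

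Genes were filtered (filterByExpr), normalized (TMM) and tested with edgeR 4.0.16 (glmQLFit, robust, and glmQLFTest), with Benjamini-Hochberg adjustment over all human genes tested, at q under 0.05 in cultured cells and 0.1 in tumors. Each table was fitted separately. One fit compared both hairpins with shCtrl, and another held 3 groups. Tests were checked on simulated data, in which both hairpins had the same changes of 1 on the log2 scale. Against shCtrl, 77.9% to 90.1% of the changed genes were recovered. False calls made up 6.33% to 9.58% of calls in cultured cells and 8.93% to 12.3% in tumors, mostly above the q thresholds. Hairpins that differ were not simulated.

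The complex I genes and the lists of partners were chosen with earlier results of these data known. All other complex I genes are named with their group. Values per library are given for NDUFC2, NDUFB7, NDUFA1, each gene called in CDH11 KD and the 3 largest called changes of each other comparison, and for NDUFS6, NDUFS8, NDUFAF1, NDUFAF7 and partner genes chosen after their values were seen. Partner genes are named where called, at most 5 per list. Gene positions are from GENCODE (hg38). Alternatives were DESeq2, other normalizations and filters, a replicate block, a mouse ratio covariate and leaving out libraries.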

Additional observations from a re-analysis of the deposited data

Results flagged for a closer look

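NDUFB7 was lower in cultured CDH11 KD cells (-0.31, below the shCtrl mean in 6 of 6 libraries) and higher in CDH11 KD tumors (0.47, above the shCtrl mean in 10 of 10). The difference between cultured cells and tumors was not tested.

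In 5 of 42 groups of 5 tumors, 1 tumor stood apart from the other 4 by more than Dixon's 95% critical value of 0.71, which chance gives in about 1 of 20 groups. NDUFB9 was at 406 normalized CPM in shCtrl tumor 5, against 559 to 601 in the other shCtrl tumors. NDUFA12 was at 73.5 in the same tumor, against 154 to 160. With sh#2, NDUFA12 was at 164 in tumor 3 (119 to 131 in the others), NDUFC1 at 170 in tumor 4 (130 to 139) and NDUFAF8 at 91.8 in tumor 4 (56.9 to 63.2).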

How the results depend on the processing

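Over 64 calls of a complex I gene in a comparison, 1152 values were computed under alternatives, of which 959 kept direction and threshold, 191 lost the threshold and 2 changed direction. The latter were NDUFB2 (-0.045) and NDUFS5 (-0.087) with sh#2 in cultured cells under library totals without composition factors, an alternative chosen after seeing the data. In cultured CDH11 KD cells, the 4 higher genes became 0 under library totals, 2 with a replicate block and 15 with the mean of both hairpins, and the 2 lower became 1 by DESeq2, without a filter or with the block and 5 with the mean of hairpins. The share of all genes higher there moved from 9.12% to 5.24% under totals, 6.57% with the block and 16.5% with the mean. The share lower moved from 8.32% to 7.17% by DESeq2, 5.22% without a filter, 6.07% with the block and 16.8% with the mean. With sh#1, the 2 lower became 1 by DESeq2 or without a filter and 4 under totals. All genes went from 10.6% lower to 6%, 6.69% and 14.2%. With sh#2, the 10 higher became 6 by DESeq2, 5 under upper quartile normalization and 2 under totals. The share of all genes moved from 19.5% to 14.8%, 17.2% and 9.7%. The 10 lower became 22 under totals, where all genes moved from 18.8% to 36.9%. Between hairpins, the 14 higher became 8 by DESeq2 and 27 under totals, and the 4 lower became 0 under totals. Higher genes went from 11.2% of all genes to 6.48% and 25.4%, and lower genes from 13.5% to 6.46%. In tumors, the 1 gene lower in CDH11 KD became 2 by DESeq2, under totals or without a filter, 0 with the mouse ratio as a covariate and 7 without shCtrl tumor 5 and sh#1 tumor 1. The share of all genes lower moved from 0.817% to 0.915%, 1.24%, 0.619%, 0.425% and 2.36% in the same order. Without shCtrl tumor 5 and sh#1 tumor 1, an alternative also chosen after seeing the data, 1 was lower with sh#1 and 10 with sh#2 (1.32% and 3.72% of all genes). With the mouse ratio 1 was lower with sh#2 (1.03% of all genes).

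Leaving out 1 library at a time gave 1 to 5 higher and 1 to 4 lower in cultured CDH11 KD, 8 to 12 and 1 to 3 with sh#1, 6 to 11 and 7 to 10 with sh#2, and 8 to 15 and 1 to 4 between hairpins. Over all genes, 4.58% to 9.93% were then higher and 4.24% to 9.21% lower in cultured CDH11 KD. The shares were 9.04% to 11.9% and 7.94% to 10.6% with sh#1, and 16.6% to 19.6% and 15.4% to 18.7% with sh#2. Between hairpins they were 8.51% to 11.6% and 10.5% to 14%. In tumors, leaving out 1 library gave 0 to 1 complex I genes higher and 0 to 8 lower in CDH11 KD. The numbers were 1 and 0 to 1 with sh#1, and 0 to 1 and 1 to 9 with sh#2. Between hairpins they were 0 to 1 and 0. All-gene shares in tumors were 0.225% to 2.12% higher and 0.29% to 2.17% lower in CDH11 KD. They were 0.354% to 1.5% and 0.375% to 1.59% with sh#1, and 0.654% to 2.83% and 0.697% to 3.11% with sh#2. Between hairpins the tumor shares were 0.321% to 0.818% and 0.15% to 0.732%. The cause of these changes was not tested. Replicate numbers were not used as pairs in the main fits, and whether they pair the samples is not settled here. Deviations were correlated above 0.1 in 0 of 9 cultured and 2 of 15 tumor pairs of the same number. As a hint from the data, 7 of 9 cultured and 4 of 15 tumor libraries correlated best with their own number. With a replicate block, 2 complex I genes were higher and 1 lower in cultured CDH11 KD cells. In tumors 4 genes had too few counts to test, and in cultured cells 1.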
